A study of Mus musculus with 3 samples.

Results

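The 10 genes described here code for proteins that mature endothelium, the inner lining of blood vessels, carries on its surface or uses to work on the blood that flows past. They were taken as a fixed list (Nos3, Gpihbp1, Cd93, Mmrn2, Stab1, Adgrf5, Adgrl4, Emcn, Plvap and Ecscr) out of 23397 genes in the files, and all 10 were found. Each reached at least 1 FPKM (fragments per length of transcript and per mapped total, so a level per length) in a library, as 11080 genes did. RNA came from mouse embryonic stem cells of 3 genotypes grown as embryoid bodies, floating aggregates of differentiating cells, and harvested at day 4.75. The groups were WT, SclKO (Scl, now named Tal1, is a transcription factor needed for all blood formation) and Gata1&2KO, for which the name Gata12KO is used here. There was 1 library of each, 3 in all, and sources used here do not say how many clones or cultures stand behind a library. Every library came from cells sorted as Tie2+ and CD31+ (endothelial antigens) and CD41- (an antigen of early blood cells).

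Endothelial cells make nitric oxide, hold enzymes at their luminal face, bind matrix through lectin-like receptors and carry a coat of glycosylated sialomucins. Several of these proteins are scarce in the first endothelial cells of the embryo and more abundant as vessels mature, and some, such as Cd93 and Stab1, are also made by cells of the blood lineage. The same early endothelium contains hemogenic cells, from which blood arises.

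The libraries held 31.6, 28.3 and 50.3 M fragments in WT, SclKO and Gata12KO, as implied by the deposited confidence bounds of genes with 1 transcript. Those bounds were taken to lie 2 Poisson standard deviations from the FPKM. With 1 library per group there is no test between samples and no p-value, and all bounds below cover error within a library alone, chiefly counting error. Tal1 had 51.0 FPKM in WT, 1.59 in SclKO and 38.7 in the library labelled Gata12KO. Gata1 had 4.64, 0 and 5.66 FPKM, Gata2 had 12.0, 5.81 and 44.9, so that neither was lower than WT in the library whose label names their knockout, and every direction drawn from it carries that limit. FPKM covers the whole transcript, so the loss of part of a gene need not lower it, and the labels do not name the deleted part. The sorted antigens were present, with Tek (Tie2) at 62.9, 42.4 and 62.9 FPKM and Pecam1 (CD31) at 48.3, 50.4 and 66.5. Itga2b (CD41), the antigen sorted against, had 22.8, 0.333 and 17.6 FPKM. All 7 endothelial markers examined were detected in each library, and their summed level was 432, 201 and 516 FPKM.

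The calls higher and lower were given to a gene with at least 1 FPKM in a library, a difference of at least 2-fold on the log2((FPKM + 1)/(FPKM + 1)) scale and bounds that did not overlap between the libraries compared. That scale understates the differences of genes with low levels. In SclKO against WT, 7 of the 10 genes were lower and 0 higher. Among all 11080 expressed genes 4.24% were called lower and 2.12% higher. The median log2 difference of the 10 genes was -1.83, beside -0.03 for all expressed genes. In the library labelled Gata12KO against WT, 1 of 10 was called higher and 0 lower, where the background was 0.767% higher and 3.75% lower, and the median was -0.10 beside -0.08 for all expressed genes. Against SclKO, the same library had 7 of 10 genes called higher (3.38% of all genes) and 0 called lower (3.75% of all genes). The comparisons share libraries and are not independent. In RNA from a sorted pool, fewer cells of a type and less RNA per cell cannot be told apart.

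**Figure D1:**
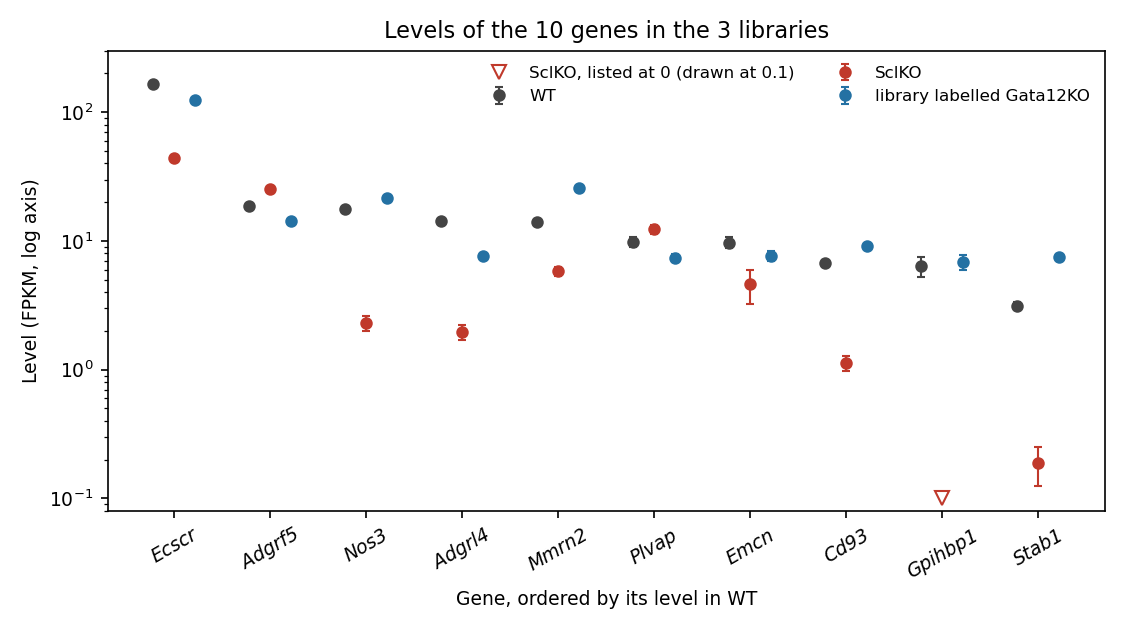
Level of each gene in each library, in FPKM on a log axis, with the deposited bounds as bars; an open triangle marks a gene listed at 0. SclKO lies below both other libraries for 8 of 10 genes and above both for Adgrf5 and Plvap.

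Nos3 and Gpihbp1 serve exchange between blood and tissue. Nos3 codes for the nitric oxide synthase of endothelium, whose product relaxes vascular muscle. It lies on chromosome 5, 23870637 to 23890292 (mm9, forward strand, 26 exons), and had 17.7 FPKM (bounds 16.9 to 18.4) for WT, 2.31 (1.98 to 2.63) for SclKO and 21.4 for the library labelled Gata12KO (20.8 to 22.1). SclKO was the low library, 7.67-fold below WT (log2 difference -2.50), which placed it at rank 73 from the lowest of the 11080 expressed genes. The library labelled Gata12KO stood slightly above WT, with separate bounds and a log2 difference of 0.26. The transcript span of Nos3 shares 294 nt with that of Atg9b of the reverse strand, which had 0.366, 0.163 and 0.440 FPKM.

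Gpihbp1 anchors lipoprotein lipase to the luminal face of capillaries. At chromosome 15, 75427088 to 75428643 (forward strand, 4 exons, 797 nt of exons), its level was 6.42 FPKM (5.26 to 7.57) for WT and 6.91 (5.98 to 7.85) for the library labelled Gata12KO, while SclKO listed it at 0. By the bounds those levels correspond to an estimated 124 and 219 reads, and 3 reads in SclKO would have given 0.177 FPKM. WT and the library labelled Gata12KO overlapped and could not be told apart. Of 6442 genes with at least 5 FPKM in both of those libraries and a transcript of at least 300 nt, Gpihbp1 was the only one listed at 0 in SclKO. This count was made after its values were seen. With the limit at 3 FPKM, 2 genes met it, Gpihbp1 and the targeted gene Gata1.

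Most genes of the nitric oxide pathway around Nos3 were not called. Of 23 listed genes of nitric oxide synthesis and response, 16 were expressed. In SclKO against WT 1 was lower, Ddah1, which degrades inhibitors of the synthase (10.5 and 3.67 FPKM), and the median log2 difference of the 16 was 0.03. In the library labelled Gata12KO against WT 1 was lower, the guanylate cyclase subunit Gucy1a1 (4.29 and 1.60). Lipase and Ly6 family genes around Gpihbp1 had 8 of 18 measured members expressed. Of these Ly6c1 (5.06 in WT and 0.489 in SclKO) and Ly6h (1.86 and 0.0505) were lower in SclKO, none was higher, and the median was -0.02. None of the 8 was called in the library labelled Gata12KO against WT, where the median was -0.69. That median was taken with the trend of differences with transcript length left in. Removing the trend moved the short genes Ly6c1 from -0.75 to -0.22 and Ly6h from 0.002 to 0.39. The longer Lpl had -0.90 before and -0.94 after.

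**Figure D2:**
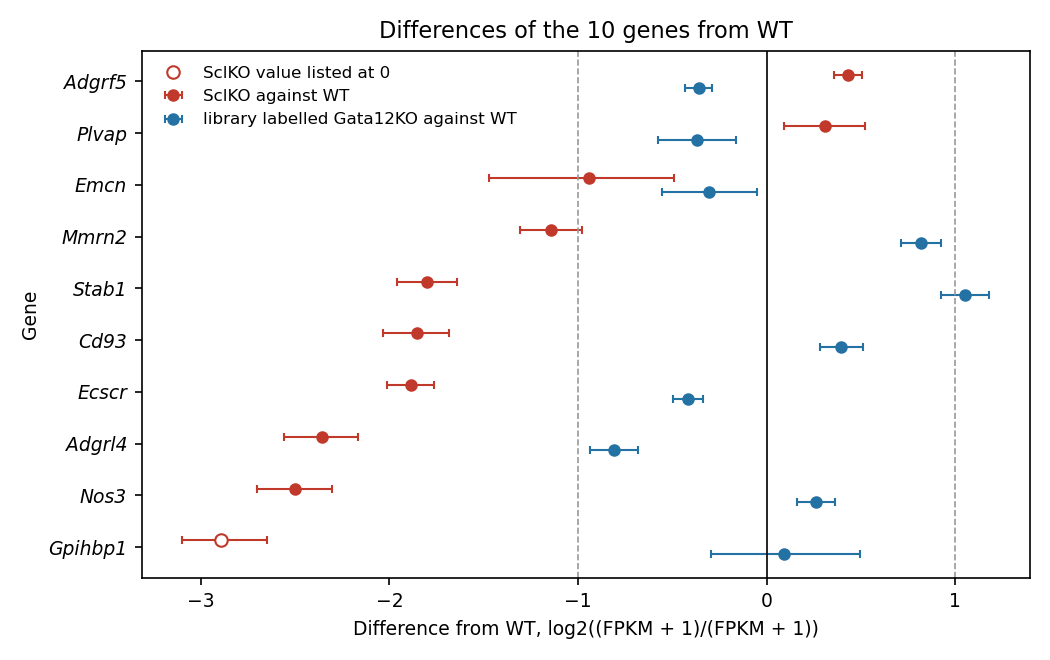
Difference of each gene from WT on the log2((FPKM + 1)/(FPKM + 1)) scale, with bars from the deposited bounds of both libraries and dashed lines at 2-fold; the open symbol marks a value listed at 0. In SclKO 7 genes lie beyond the lower line, and in the library labelled Gata12KO only Stab1 lies beyond a line.

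Cd93 and Mmrn2 are receptor and ligand. Cd93 is a C-type lectin of group 14 on endothelial and some blood cells, and Mmrn2 (multimerin 2) is a matrix protein that binds it. Cd93, at chromosome 2, 148262387 to 148269271 (reverse strand, 2 exons), had 6.71 FPKM (6.35 to 7.07) for WT, 1.13 (0.974 to 1.29) for SclKO and 9.14 for the library labelled Gata12KO (8.81 to 9.48). Mmrn2, at chromosome 14, 35188690 to 35217472 (forward strand, 7 exons), had 14.1 FPKM (13.4 to 14.8) for WT, 5.83 (5.36 to 6.30) for SclKO and 25.6 for the library labelled Gata12KO (24.9 to 26.3). For both genes SclKO was lowest and the library labelled Gata12KO highest, with no overlap of bounds. Cd93 was 5.93-fold and Mmrn2 2.41-fold lower in SclKO than in WT, so the level of the ligand was 2.10 times that of the receptor in WT, 5.15 times in SclKO and 2.80 times in the library labelled Gata12KO. Relative to WT, that library had log2 differences of 0.40 for Cd93 and 0.82 for Mmrn2, both under the 2-fold limit.

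The related lectins and multimerins split. Of 7 listed genes, 3 were expressed. Thbd (thrombomodulin, a surface anticoagulant) was lower in SclKO (8.54 FPKM in WT and 0.984), Cd248, a lectin of stromal cells, was higher (2.18 and 7.64), and Emilin1 was between (7.29 and 12.0). None was called in the library labelled Gata12KO against WT. Clec14a, a group 14 lectin that also binds Mmrn2, stayed under 1 FPKM in every library (0.581, 0.212 and 0.191) and was named after its values were seen.

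Stab1 codes for a scavenger receptor that clears modified lipoproteins and matrix fragments, made by sinusoidal endothelium and by macrophages. At chromosome 14, 31952203 to 31981827 (reverse strand, 69 exons), it had 3.14 FPKM (2.90 to 3.37) for WT, 0.188 (0.126 to 0.25) for SclKO and 7.57 for the library labelled Gata12KO (7.29 to 7.85). The 3 levels were well apart. WT held 16.7-fold more than SclKO, and the library labelled Gata12KO 2.41-fold more than WT, the only call among the 10 genes in that comparison (log2 difference 1.05). The call ended after the trend of differences with transcript length was removed (0.88). The transcript span of Stab1 shares 108 nt with that of Nt5dc2 of the opposite strand. Nt5dc2 had 187, 137 and 233 FPKM, the same order of libraries as Stab1. The part of the shared stretch in the Stab1 levels was not tested. Of 12 other scavenger receptors measured, 4 were expressed. Mrc1 (6.32 FPKM in WT and 1.40 in SclKO) and Scarf1 (6.07 and 2.33) were lower in SclKO, none was higher, and none was called in the library labelled Gata12KO against WT.

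Because Cd93 and Stab1 are also known from myeloid cells, myeloid markers were examined beside them. Of 13 measured, 5 were expressed, and all 5 were lower in SclKO than in WT. Their summed level was 29.9 FPKM in WT, 1.90 in SclKO and 15.8 in the library labelled Gata12KO. Among the defining macrophage genes, Adgre1, C1qa and C1qc were listed at 0 in every library, while Csf1r was listed at 0 in WT and SclKO and had 0.0268 FPKM in the third. Mrc1, Spi1, Lyz2, Tyrobp and Mpo made up the expressed 5. Mrc1, which is also made by endothelium, gave 6.32, 1.40 and 10.0 FPKM of the summed levels in WT, SclKO and the library labelled Gata12KO. In those of SclKO and the library labelled Gata12KO it was the largest part. Mpo had 10.2, 0.286 and 3.37 FPKM. Stab1 and Cd93 had their highest level in the library labelled Gata12KO, where 4 of these 5 markers were lower than in WT, a count that became 2 with the length trend removed (Lyz2 -0.76 and Tyrobp -0.83). The part of blood-lineage cells in these levels was not tested.

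Adgrf5 and Adgrl4 are adhesion G protein-coupled receptors of endothelium, with long extracellular parts. Adgrf5, at chromosome 17, 43526415 to 43596506 (forward strand, 21 exons), had 18.6 FPKM (18.0 to 19.1) for WT, 25.3 (24.7 to 26.0) for SclKO and 14.2 for the library labelled Gata12KO (13.9 to 14.6). Adgrl4, at chromosome 3, 151100846 to 151208045 (forward strand, 16 exons), had 14.2 FPKM (13.6 to 14.9) for WT, 1.97 (1.71 to 2.24) for SclKO and 7.69 for the library labelled Gata12KO (7.30 to 8.09). The first gene was at its highest in SclKO and the second at its lowest there, 7.21-fold below WT. The level of Adgrf5 was 1.30 times that of Adgrl4 in WT, 12.9 times in SclKO and 1.85 times in the library labelled Gata12KO. Adgrf5 differed from WT by 0.43 and -0.36 (log2) in SclKO and the library labelled Gata12KO, within the 2-fold limit. For Adgrl4 the second difference was -0.81.

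Of 20 other adhesion receptors measured, 6 were expressed and 1 was called in each comparison with WT. It was Adgrg1, lower in SclKO (9.37 FPKM in WT and 0.232) and in the library labelled Gata12KO (0.985). The median log2 difference of the 6 was 0.16 in SclKO and -0.13 in the library labelled Gata12KO.

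The 250 bases before the RefSeq start of these receptor genes and of Stab1 are shown because Adgrl4 and Stab1 were lower in SclKO while Adgrf5 was not. Of the 10 genes, 4 matched the RefSeq promoter table (build GRCm38.p6), which is not the build of the deposited files. For each window shown, the distance from the start to the gene's end equals the span of the deposited transcript. Capitals mark matches on either strand. The words marked were the E-boxes CAGCTG and CAGATG, the class of site that Scl dimers bind. The wider E-box pattern CANNTG (N for any base) was counted and is not marked. GATA words were AGATAA with its variant AGATAG, besides TGATAA with its variant TGATAG. Words with an ETS core were AGGAAG together with CGGAAG. Sequences run 5′ to 3′ on the strand of the gene, chr3:151437632-151437881 (forward) for Adgrl4, chr14:31168642-31168891 (reverse) for Stab1 and chr17:43389216-43389465 (forward) for Adgrf5.
Adgrl4: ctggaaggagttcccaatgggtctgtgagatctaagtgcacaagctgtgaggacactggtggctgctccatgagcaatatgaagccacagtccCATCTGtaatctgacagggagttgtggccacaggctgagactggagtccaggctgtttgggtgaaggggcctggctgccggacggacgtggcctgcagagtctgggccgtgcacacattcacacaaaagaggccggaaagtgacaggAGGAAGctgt
Stab1: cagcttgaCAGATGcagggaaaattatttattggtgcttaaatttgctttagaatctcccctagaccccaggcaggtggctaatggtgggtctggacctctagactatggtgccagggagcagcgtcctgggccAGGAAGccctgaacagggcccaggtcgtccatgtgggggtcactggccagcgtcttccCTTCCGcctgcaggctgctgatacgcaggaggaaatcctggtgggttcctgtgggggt
Adgrf5: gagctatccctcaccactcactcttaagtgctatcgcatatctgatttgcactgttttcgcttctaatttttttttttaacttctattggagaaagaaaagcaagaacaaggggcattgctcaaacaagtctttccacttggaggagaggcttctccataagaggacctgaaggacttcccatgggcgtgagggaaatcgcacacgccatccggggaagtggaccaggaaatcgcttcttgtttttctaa
Adgrl4 held 1 CAGATG word and 1 ETS word, Stab1 1 CAGATG word and 2 ETS words, and the Adgrf5 window shown 0 of either. A second Adgrf5 start in the table, whose span differs from that of the deposited transcript, had 1 ETS word in its window (57 bases before the start) and no CAGATG. No GATA word and no CAGCTG was found in these 3 windows. The wider pattern CANNTG, which takes in CAGATG, had 1 match in Adgrl4, 3 in Stab1 and 1 in the Adgrf5 window shown. The second Adgrf5 window had 0. Among 32841 RefSeq promoter windows of the same length, 14.4% held CAGATG, 13.0% CAGCTG, 26.5% a GATA word and 39.2% an ETS word. CANNTG was in 66.2% of them. The windows shown were chosen with the SclKO levels known. Emcn also matched the promoter table, and its window is not shown. That window held 2 ETS words, 1 match to CANNTG, neither CAGCTG nor CAGATG, and no GATA word. Emcn was 2.12-fold lower in SclKO than in WT, with separate bounds but no call. These matches describe letters and not bound sites.

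Emcn codes for endomucin, a sialomucin of the endothelial coat that limits leukocyte adhesion. At chromosome 3, 137004042 to 137094033 (forward strand), it is given as 2 transcripts, of 12 and 11 exons, which were summed. The sum was 9.72 FPKM (8.74 to 10.8) for WT, 4.59 (3.24 to 5.94) for SclKO and 7.69 for the library labelled Gata12KO (7.01 to 8.41). No bounds overlapped, and SclKO was 2.12-fold below WT, but on the scale with 1 FPKM added the difference was -0.94 and no call was made. The 12-exon transcript had 9.72, 2.79 and 7.69 FPKM, and the 11-exon transcript was at or near 0 in WT and the library labelled Gata12KO and had 1.80 (1.11 to 2.49) in SclKO. Taking the transcript of highest level alone brought Emcn to -1.50 and made it a lower gene in SclKO. Taking the bounds as counting error alone, the reads behind the 2 entries in SclKO would be 72.1 and 27.0. That relation was fitted on genes of 1 transcript only, so for Emcn these are rough estimates.

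Among 9 other sialomucins 5 were expressed. In SclKO Cd34 (18.9 FPKM in WT and 5.61) and Madcam1 (2.15 and 0.0869) were lower and none was higher. Cd34 was lower in the library labelled Gata12KO as well (5.50).

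Plvap codes for the protein of the diaphragms that span fenestrae and caveolae, the membrane pits of endothelium. At chromosome 8, 74021652 to 74035668 (reverse strand, 6 exons), it had 9.83 FPKM (9.0 to 10.7) for WT, 12.4 (11.4 to 13.4) for SclKO and 7.38 for the library labelled Gata12KO (6.82 to 7.95). Its order of libraries was that of Adgrf5, with SclKO at the top and separate bounds, and log2 differences from WT of 0.31 and -0.37. This order holds on the deposited scale and turns when each library is scaled to its sum, where Plvap in the library labelled Gata12KO differed by 0.26 from WT and 0.07 from SclKO. Other genes of these pits were examined beside it. Of 10 caveola and fenestra genes 8 were expressed, and 4 of them were lower in SclKO and 0 higher. Cavin1, needed to form caveolae, had 41.8 FPKM in WT, 1.29 in SclKO and 42.0 in the library labelled Gata12KO. Cavin3 had 3.88 and 0.769 in WT and SclKO, Cav2 4.34 and 0.964, and Cav1, the main structural protein of caveolae, 5.05 and 1.67. Cavin3 was also lower in the library labelled Gata12KO (0.879), a call that ended with the length trend removed (log2 difference -0.89).

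Ecscr is a small surface protein of endothelial cells that acts on VEGF receptor signalling and migration. At chromosome 18, 35872743 to 35881145 (reverse strand, 9 exons), it had 166 FPKM (161 to 170) for WT, 44.0 (41.4 to 46.6) for SclKO and 124 for the library labelled Gata12KO (121 to 127). It was the most abundant of the 10 genes in every library, and made up 62.3%, 45.0% and 53.5% of their summed FPKM. SclKO was lower than WT by 3.76-fold (log2 difference -1.89), and the library labelled Gata12KO had a difference of -0.42, which became 0.02 once the length trend was removed. Of 11 genes of VEGF signalling, all expressed, 1 was lower in SclKO, the endothelial phosphatase Ptprb (7.05 FPKM in WT and 1.17), and none was called higher. Nrp1 (56.4 and 113) had separate bounds and came just under the limit, with a log2 difference of 0.99. The receptors Kdr (42.1 and 96.3) and Flt1 (8.72 and 19.6) were higher in the library labelled Gata12KO and none was lower. With the length trend removed Kdr was still called (1.11) and Flt1 was not (0.96).

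The 7 genes called higher in the library labelled Gata12KO than in SclKO were the 7 called lower in SclKO than in WT, and both comparisons use the SclKO library. The ratio was 40.3 for Stab1, 9.29 for Nos3, 8.08 for Cd93, 4.39 for Mmrn2, 3.90 for Adgrl4 and 2.81 for Ecscr, and Gpihbp1 has no ratio because SclKO listed it at 0. Emcn (0.64), Adgrf5 (-0.79) and Plvap (-0.68) had log2 differences within the 2-fold limit.

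The order of levels within a library differed in SclKO. In WT the order after Ecscr was Adgrf5, Nos3, Adgrl4, Mmrn2, Plvap, Emcn, Cd93, Gpihbp1 and Stab1. The bounds of Adgrf5 and Nos3, of Adgrl4 and Mmrn2, of Plvap and Emcn, and of Cd93 and Gpihbp1 overlapped, so those neighbours did not differ beyond counting error. In SclKO Plvap followed Adgrf5, and the levels then ran from Mmrn2 at 5.83 FPKM down to Gpihbp1 at 0. The summed level of the 10 genes was 266, 97.8 and 232 FPKM in WT, SclKO and the library labelled Gata12KO. Without Ecscr it was 100.3, 53.8 and 108 FPKM, of which Adgrf5 and Plvap together made up 28.3%, 70.2% and 20.1%. In the library labelled Gata12KO, Mmrn2 was second, and the levels of the last 5 genes (Emcn, Adgrl4, Stab1, Plvap and Gpihbp1) overlapped from each to the next, between 6.91 and 7.69 FPKM.

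**Figure D3:**
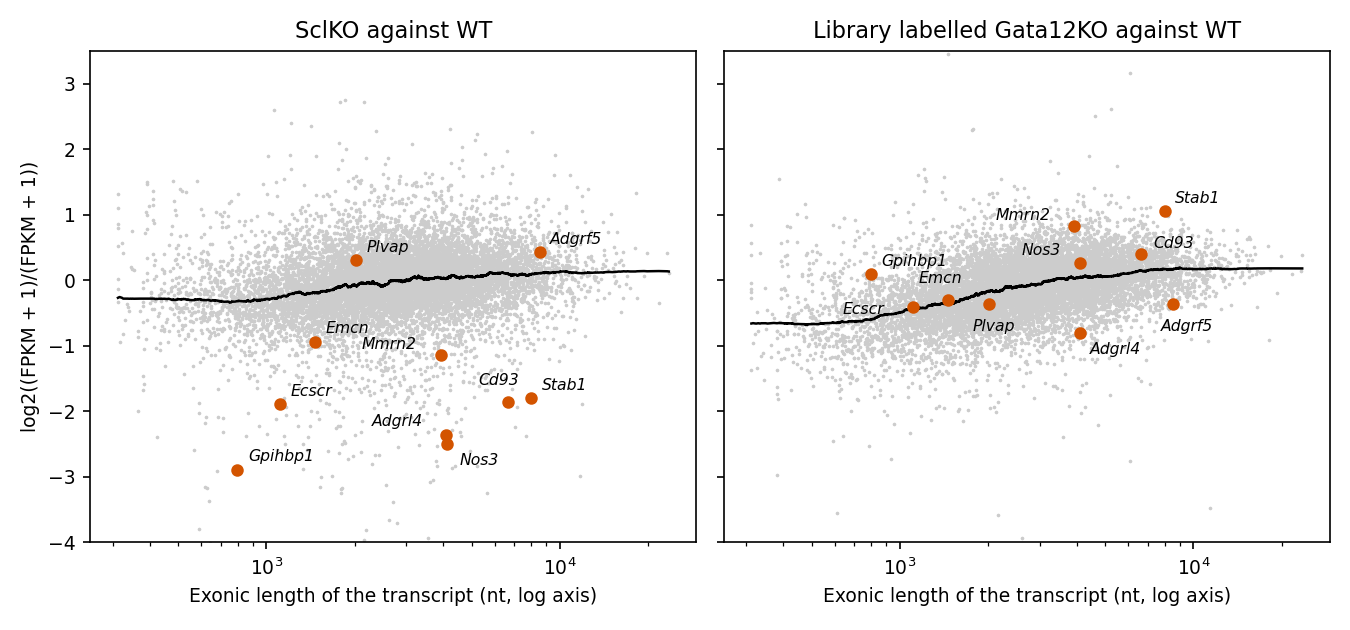
Difference from WT of expressed genes with transcripts of at least 300 nt (grey points), against exonic length on a log axis, with a running median (line) and the 10 genes (orange); 11 and 5 genes lie outside the drawn range. Lower genes in SclKO lie far under the line at short and long lengths, and in the library labelled Gata12KO the line itself climbs with length.

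Differences from WT followed transcript length over all genes, which bears on the small differences of the library labelled Gata12KO. There the median log2 difference was -0.55 in the shortest 10% of genes and 0.16 in the longest 10%, and in SclKO -0.30 and 0.10. Stab1, Cd93 and Mmrn2, the genes of largest positive difference in the library labelled Gata12KO, have 7995, 6638 and 3934 nt of exons, while Gpihbp1 and Ecscr have 797 and 1111. With the trend removed the differences of Gpihbp1 and Mmrn2 in that library were 0.70 and 0.79 (0.09 and 0.82 before), and no gene of the 10 was called. In SclKO the 7 lower genes were called with or without the trend.

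Other endothelial genes gave the frame for these values. Of 23 further pan-endothelial genes, all expressed, 15 were lower in SclKO than in WT and 0 higher, with a median log2 difference of -1.22. Among the 15, the call of Ramp2 (-1.14) ended with the length trend removed (-0.82). The 4 with the largest differences were Esam, a junction protein (88.0 FPKM in WT and 14.9), the tight-junction gene Cldn5 (10.5 and 1.89), Calcrl, the adrenomedullin receptor (18.2 and 3.96), and Tie1 (64.2 and 16.6). Calcrl (37.6) was the 1 of 23 higher in the library labelled Gata12KO (log2 difference 1.01), a call that ended with the length trend removed (0.94), and 0 were lower. Of 20 genes of later or specialised endothelium 12 were expressed. In SclKO 6 were lower and 0 higher, with a median of -1.0, led by Ackr1 of venules (5.30 and 0.111), Ly6c1, Tmem100 (4.91 and 1.04) and the adhesion molecule Icam1 (3.56 and 0.831). Of the 12, 3 were lower in the library labelled Gata12KO, Ackr1 (1.36), Procr (3.24 and 0.877) and Car4 (6.39 and 2.58), and 0 higher. With the length trend removed all 3 of these calls ended (log2 differences -0.98, -0.82 and -0.67). Procr was also among the 6 lower in SclKO (log2 difference -1.02), and that call ended too (-0.83).

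**Figure D4:**
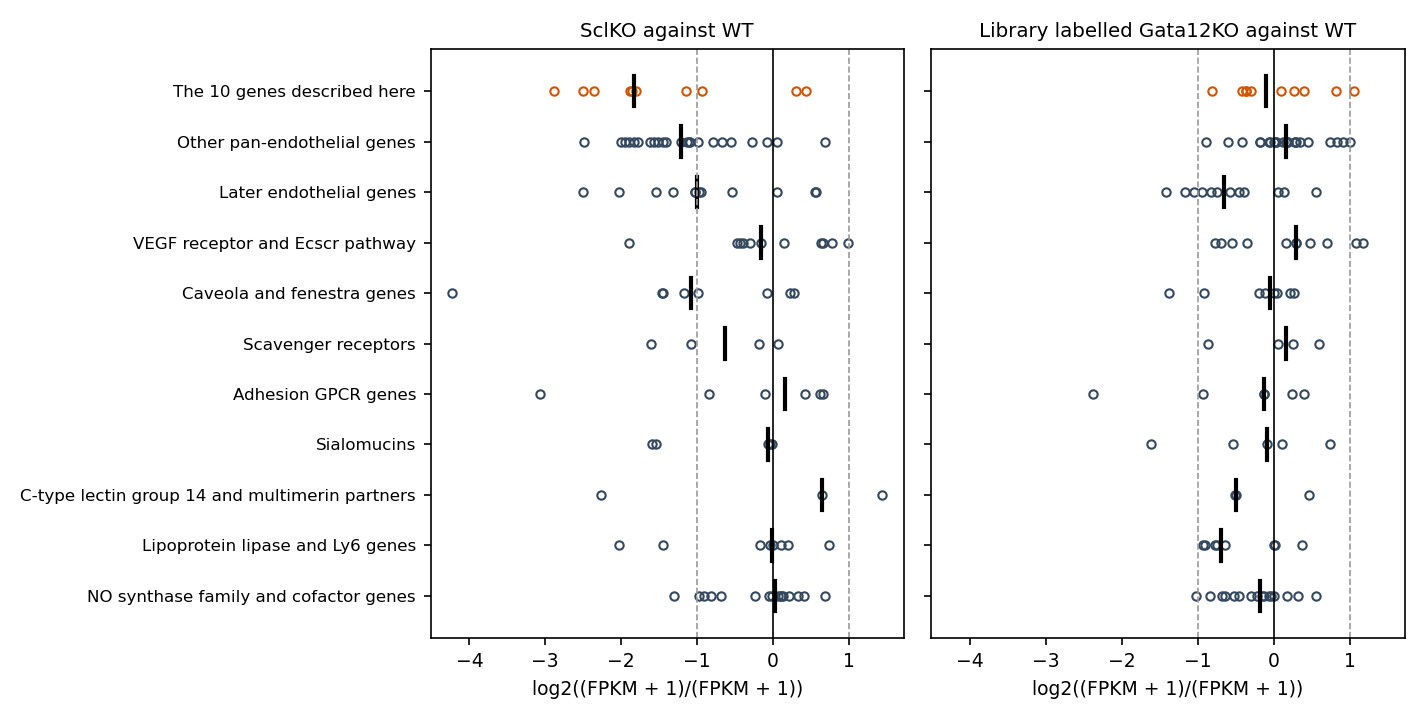
Difference from WT of the 10 genes (top row) and of the expressed genes of 10 related lists, 1 point a gene, with the median as a bar and dashed lines at 2-fold. In SclKO the medians of the 10 genes (-1.83), the pan-endothelial (-1.22), caveola (-1.08) and later endothelial lists (-1.0) lie to the left, and the others lie between -0.64 and 0.65.

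Markers of other cells moved between the libraries as well. Erythroid markers summed to 185, 1.64 and 11.5 FPKM in WT, SclKO and the library labelled Gata12KO, and platelet-lineage markers to 35.7, 1.69 and 20.7. The globin genes Hbb-y, Hba-a1 and Hba-a2 were listed at 0 in SclKO, and Ppbp of platelets was listed at 0 in every library. Mesenchymal and smooth muscle markers summed to 84.3, 150 and 35.2 FPKM, epithelial and endodermal markers to 94.7, 142 and 46.7, cardiac muscle markers to 9.55, 11.6 and 10.9, with Myl2 listed at 0 in each, and pluripotency markers to 33.8, 10.4 and 15.6. Most of the SclKO difference in the pluripotency sum lay in Dppa4. Of 3 expressed pluripotency markers it was the 1 called lower in SclKO, 0 were higher, and their median log2 difference was -0.17. Adgrf5 and Plvap shared with the mesenchymal and epithelial sums the order of SclKO first and the library labelled Gata12KO last on the deposited scale. Of the 9 mesenchymal and smooth muscle markers, all expressed, 3 were called higher and 0 lower in SclKO than in WT. In the library labelled Gata12KO 3 were lower and 0 higher. Acta2 held 42.1 of the 84.3 FPKM in WT. Pdgfrb (2.39, 9.16 and 2.79) and Tagln (1.44, 1.37 and 0.691) did not have that order. Krt8 and Krt18 held most of the epithelial sum, and 0 of its 5 expressed markers were called higher in SclKO. Epcam and Cdh1 had SclKO first and the library labelled Gata12KO last, with small differences. Sox17 and Foxa2 were lowest in SclKO and highest in the library labelled Gata12KO, and Ttr was highest in WT. With each library scaled to its sum, Adgrf5 and Plvap in the library labelled Gata12KO differed from WT by 0.30 and 0.26. The part of other cells in these differences was not tested.

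For each of the 10 genes, the gene of most similar pattern was sought among 7536 others with at least 5 FPKM in a library, by the distance between log2(FPKM + 1) values centred on each gene's mean over the 3 libraries. Nos3 lay nearest to Gata1 (distance 0.021), with 7 genes within 0.25. That likeness rests on the 1 FPKM added, as Gata1 was listed at 0 in SclKO and Nos3 had 2.31. Cd93 lay nearest to the phosphatase gene Ptprb (0.071) and Mmrn2 to the SoxF factor Sox7 (0.024, with 48.3, 21.9 and 87.0 FPKM). Stab1 was closest to Calcrl (0.11) and Gpihbp1 to Reln (0.18, with 7.45, 0.0615 and 6.57 FPKM). Adgrl4 lay nearest to Gcnt1 (0.078) and Ecscr to Net1 (0.021). The flatter patterns had many near neighbours, with 636 genes within 0.25 of Plvap (nearest Ctsh), 380 of Adgrf5 (nearest Hdac8) and 191 of Emcn (nearest Ttc32), against 2 of Stab1 and 3 of Gpihbp1. With 3 libraries such distances describe the levels only.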

How the data were processed

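RNA of sorted embryoid body endothelium was sequenced as 50 nt reads, 1 library per genotype. The authors deposited FPKM values with lower and upper bounds and coverage per RefSeq transcript, written by Cufflinks per the file headers' source column. The submitters' processing notes name TopHat2 2.0.4, Cufflinks 2.0.1, Cuffdiff and the builds mm9 and hg19 without roles, and the files' own mm9 coordinates are used. Scaling beyond FPKM and the use of strand are not given in the sources used here.

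Of 29610 accessions, 29030 were named by the RefSeq gene table (GRCm38.p6), 173 by the GENCODE table and 407 by neither. In 1 file 136 entries carried another accession and were joined by position and exons, and 134 whose symbols then differed were left out. FPKM and bounds were summed per gene. Depth came from the bounds, with reads behind an entry taken as the square of 2 × FPKM over the distance to the upper bound, and 1 total and 1 length term fitted per library. The length trend is a running median over 501 genes. The size rule was tested on simulated data with Python 3.11.15 and numpy 2.4.6. The 10 genes, the lists and the alternatives were chosen with earlier results of these data known. From each list, named genes are at most 4 of those called, by largest difference, first in SclKO and then in the library labelled Gata12KO, and exceptions are named in the text. Symbols that matched no entry (Adgrg4, Cd68, Apoc2) were not analysed here. The value of 1 marker gene is not reported singly here.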

Additional observations from a re-analysis of the deposited data

How the results depend on the processing

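No paired analysis was possible because each group has 1 library. In SclKO against WT none of the 10 genes changed sign under any of the 7 alternatives of scale, pseudocount, length trend or transcript choice, and the count of lower genes was 7 in the report, 4 with a pseudocount of 5 (Nos3, Ecscr, Adgrl4 and Gpihbp1), and between 6 and 8 in the other alternatives. In the library labelled Gata12KO against WT, the 1 higher gene became 0 with a pseudocount of 5, with the length trend removed or with a 3-fold limit, 2 with a 1.5-fold limit or scaling to entries of 300 nt or longer (Mmrn2 and Stab1), and 3 (with Cd93) after scaling to the library sum (TPM). A 1.5-fold limit made 1 gene lower there (Adgrl4), and 2 lower than SclKO (Plvap and Adgrf5). Scaling to the library sum shifted ratios of that library to WT by 0.69 (log2, before 1 FPKM is added), and turned Emcn, Plvap, Ecscr and Adgrf5 positive. It also turned Plvap positive against SclKO (0.07). Removing the length trend turned Emcn (0.05) and Ecscr (0.02) positive. Over all genes, the lower share of calls in SclKO was 66.7% and 53.6% after scaling to entries of 300 nt or longer. In the library labelled Gata12KO against WT it was 83%, and 71.4%, 44.4% and 7.71% after scaling by median ratios, to entries of 300 nt or longer and to the library sum, and 52.7% with the length trend removed. Against SclKO it was 52.6%, and 39.4% and 5.24% after scaling to entries of 300 nt or longer and to the library sum. Over all alternatives the counts of all genes ran from 43 to 874 higher (235 in the report) and 184 to 1248 lower (470) in SclKO, and from 16 to 1161 higher (85) and 79 to 1550 lower (415) in the library labelled Gata12KO. Against SclKO that library had 132 to 1936 higher (375) and 107 to 1255 lower (416). The cause was not tested. Of the 10 genes, Gpihbp1 rested on the fewest estimated reads in WT (124).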
